A study of Arabidopsis thaliana with 30 samples.

Results

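The morning transcripts of the circadian clock were followed in Arabidopsis thaliana seedlings through 9 genes: CCA1, LHY, RVE1, RVE4, RVE6, RVE7, RVE8, LNK1 and LNK2. They were taken from the expression table by their locus identifiers. All 9 were found among the 38088 genes of the table, all 9 passed the filter that kept 21531 genes for testing, and none was listed at 0 in any library. Messenger RNA had been sequenced from whole seedlings 7 days old, grown on agar at 22 °C in a light-dark cycle. The genotypes were Col-0, the wild type, the double mutants smxl4 smxl5 and ski2 dcl4, and the triple mutants smxl6 smxl7 smxl8 and ski2 dcl4 dcl2. Each genotype gave 3 libraries with no heat stress (control) and 3 libraries after 85 min at 44 °C (heat), given by placing sealed plates in a water bath, so 30 libraries formed 10 groups. The labels name neither the mutant alleles nor the time of day of harvest, and nothing in them says whether the libraries of a group were separate cultures. For clock transcripts, a difference in harvest time between groups cannot be told apart from an effect of genotype or heat. SMXL4 and SMXL5 act in forming the phloem, while SMXL6, SMXL7 and SMXL8 repress the response to strigolactones. SKI2 is a helicase that feeds RNA to the cytoplasmic exosome, and small RNAs are cut by the Dicer-like enzymes DCL4 and DCL2.

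The plant clock is a loop of transcription factors whose transcripts peak at successive times of day. CCA1 and LHY are closely related MYB-type repressors that peak around dawn and hold down the pseudo-response regulator (PRR) genes and the evening genes, which in turn repress CCA1 and LHY. RVE8, RVE4 and RVE6 are relatives that activate evening genes, with LNK1 and LNK2 as coactivators. RVE1 and RVE7 (EPR1) are relatives whose transcripts also cycle with a morning peak, and RVE1 links the clock to auxin synthesis. RVE4 and RVE8 have also been described as activators of early heat-induced genes.

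Upstream sequence is shown for 4 of the genes whose transcripts differed between genotypes and whose 250 bases before the annotated start held a motif of the clock or of heat shock factors. The windows were read from the TAIR10.1 assembly, and LHY (AT1G01060) lies at chr1:37872-38121 on the minus strand, CCA1 (AT2G46830) at chr2:19245341-19245590 on the plus strand, RVE7 (AT1G18330) at chr1:6308244-6308493 on the minus strand and RVE6 (AT5G52660) at chr5:21362274-21362523 on the minus strand. Each is written 5′ to 3′ towards its gene, with the motifs in capitals.
LHY: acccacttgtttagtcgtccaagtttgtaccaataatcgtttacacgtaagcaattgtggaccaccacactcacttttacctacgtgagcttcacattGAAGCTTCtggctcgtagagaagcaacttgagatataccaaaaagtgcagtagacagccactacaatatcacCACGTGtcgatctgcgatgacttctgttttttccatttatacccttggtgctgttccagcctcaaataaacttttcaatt
CCA1: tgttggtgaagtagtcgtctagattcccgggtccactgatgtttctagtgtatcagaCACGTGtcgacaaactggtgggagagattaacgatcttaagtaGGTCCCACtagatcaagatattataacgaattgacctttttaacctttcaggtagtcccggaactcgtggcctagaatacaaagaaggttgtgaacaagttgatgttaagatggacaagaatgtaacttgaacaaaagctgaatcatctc
RVE7: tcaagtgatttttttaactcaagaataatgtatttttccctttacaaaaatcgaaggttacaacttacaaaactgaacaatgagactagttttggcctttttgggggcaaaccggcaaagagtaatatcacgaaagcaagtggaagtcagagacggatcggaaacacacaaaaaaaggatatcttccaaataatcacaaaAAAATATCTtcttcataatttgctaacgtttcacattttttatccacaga
RVE6: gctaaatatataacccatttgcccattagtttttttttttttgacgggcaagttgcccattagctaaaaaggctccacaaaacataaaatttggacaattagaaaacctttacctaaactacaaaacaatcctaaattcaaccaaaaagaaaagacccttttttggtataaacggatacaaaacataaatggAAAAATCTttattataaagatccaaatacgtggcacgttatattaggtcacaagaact
In LHY the capitals mark GAAGCTTC, a match to the heat shock element core GAANNTTC, and the G-box CACGTG, a site of light-signalling and other bHLH and bZIP factors. In CCA1 they mark a G-box and GGTCCCAC, a match to the TCP-factor site GGNCCCAC. In RVE7 they mark the evening element AAAATATCT and in RVE6 the CCA1 binding site AAAAATCT, both of them sequences that CCA1 and LHY are known to bind. Searched on both strands in 27443 windows of the same length before protein-coding genes, the G-box was in 6.49%, the evening element in 2.36%, the CCA1 binding site in 6.69%, the heat shock element core in 9.55% and the TCP site in 1.09%. The G-box was in 3 of the 9 windows (LHY, CCA1 and RVE1), each of the other 4 motifs was in 1, and the LUX binding site GATTCG, in 7.88% of all windows, was in none. These matches describe letters in a window and say nothing of binding.

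All values are taken as FPKM (fragments per kilobase, scaled to the size of each library), and their sums ran from 735524 to 904077 in control and from 931940 to 1099793 in heat libraries. At 1 kb of length, 1 FPKM corresponded to an estimated 15.5 to 23.4 reads, judged by the step size of rarely read genes. By that estimate the lowest library of LHY held about 44.9 reads, a counting error of 14.9%, and the lowest of LNK2 held 3087. Col-0 heat replicate 2, the column 85co#1, and ski2 dcl4 control replicate 2 stood apart from their groups. In them 2.67% and 2.42% of the genes tested lay over 1 log2 unit from the mean of the other 2 libraries, the highest shares of the 30 libraries, and the lowest share was 0.975%. Results that rest on these libraries are given with and without them. SMXL5 was higher in the control libraries labelled smxl4 smxl5 (15 ± 0.423 FPKM, SD, n = 3) than in Col-0 (4.57 ± 0.464), and so was SMXL4 (3.22 ± 0.318 against 1.93 ± 0.154), which goes against a plain loss of these transcripts. After heat, under the same label, SMXL4 was lower than in Col-0 (1.08 ± 0.253 against 2.22 ± 0.148) and SMXL5 level with it (3.05 ± 0.239 against 3.12 ± 0.269), so the control and heat libraries behind each heat change and interaction of this genotype differed in the named genes themselves. That genotype is therefore written as a label. SMXL7 was likewise not lower in the control libraries labelled smxl6 smxl7 smxl8 (8.2 ± 0.987 against 8.09 ± 1.11) but was after heat (3.19 ± 0.311 against 8.09 ± 0.989), while SMXL6 and SMXL8 were lower in both conditions. DCL4 in the libraries labelled ski2 dcl4 was level with Col-0 at control (3.44 ± 0.219 against 3.41 ± 0.325) and lower after heat, and in those labelled ski2 dcl4 dcl2 it was called in neither condition, while SKI2 was lower in both and DCL2 lower in both conditions of the triple mutant. These genotype names too are those of the labels, and a value per gene does not show whether a transcript is intact. HSFA2, a heat-induced transcription factor gene, was between 0.293 and 1.12 FPKM in every control library and between 227 and 509 in every heat library. The 4 shoot and 4 root marker genes examined were above 0 in every library, as whole seedlings would give. In such bulk samples fewer cells of a type and less RNA per cell cannot be told apart.

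**Figure D1:**
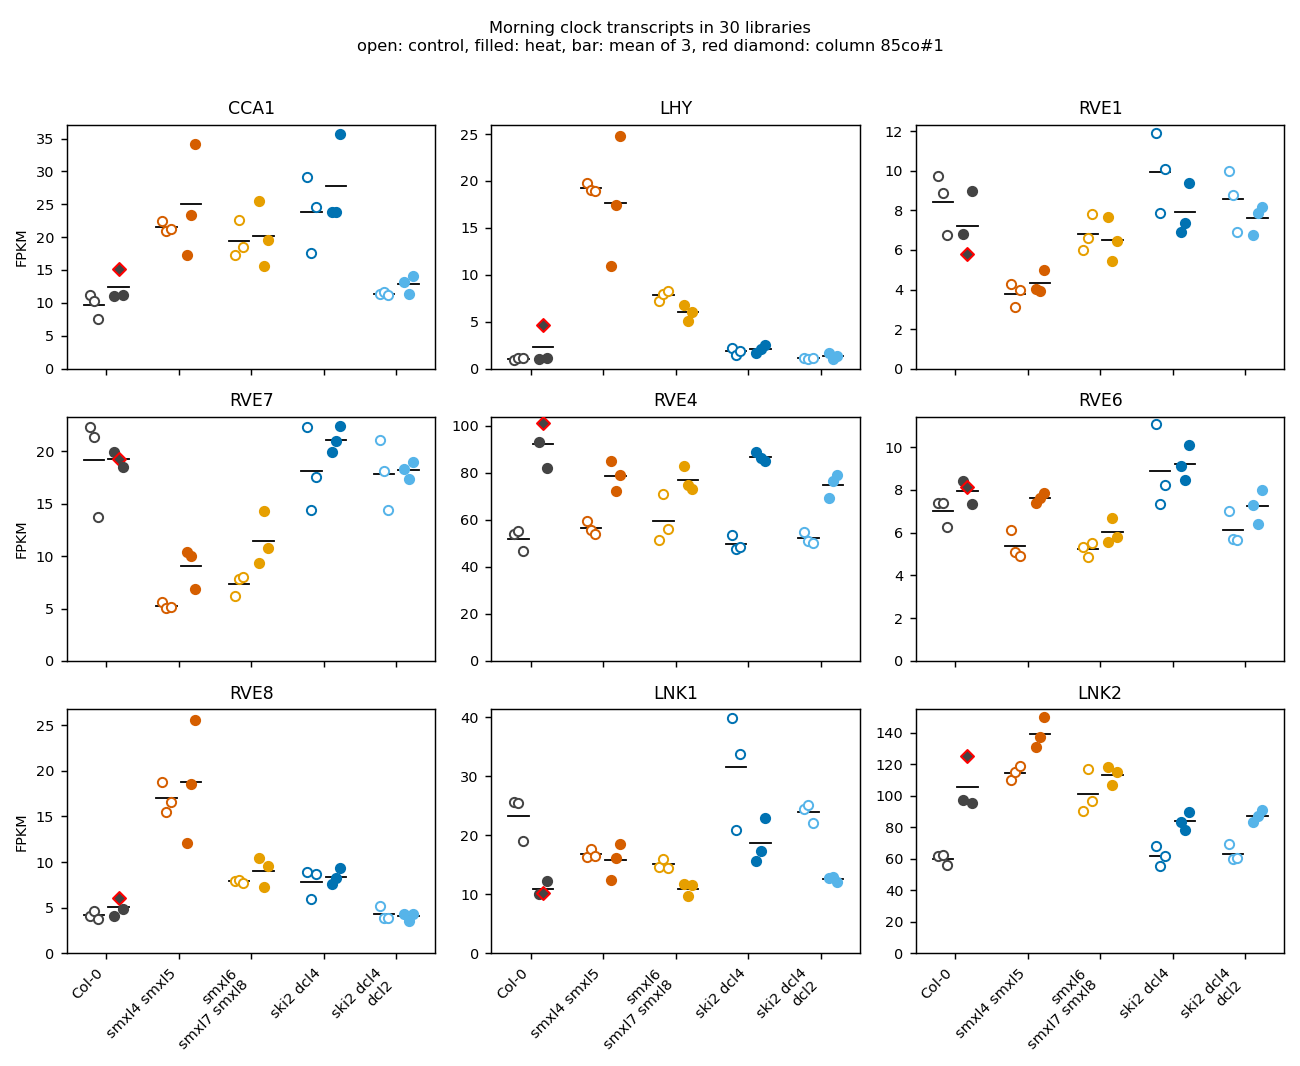
Transcript levels in FPKM (linear axes from 0) of the 9 morning clock genes in all 30 libraries. Points are single libraries, open for control and filled for heat, bars are means of 3, and the red diamond is Col-0 heat replicate 2 (column 85co#1). LHY and RVE8 were high and RVE1 and RVE7 low in the libraries labelled smxl4 smxl5, LHY was between 5.09 and 8.28 FPKM in smxl6 smxl7 smxl8, and RVE4 was above 69 FPKM in every heat library.

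LHY had the widest range of the 9 genes, with group means from 1.02 to 19.2 FPKM, an 18.8-fold span. It was at 0.889, 1.08 and 1.08 FPKM in the 3 Col-0 control libraries. In the control libraries labelled smxl4 smxl5 it was at 19.8, 19.0 and 18.9, and in smxl6 smxl7 smxl8 at 7.19, 7.92 and 8.28. These 3 groups did not overlap. With limma, the log2 difference from Col-0 was 3.33 ± 0.26 (SE, adjusted p = 5.05e-09) for the first and 2.12 ± 0.26 (adjusted p = 4.49e-06) for the second. Both differences were on the log2(FPKM + 1) scale, used for every log2 value here, which understates the change of a gene as low as LHY in Col-0. The ski2 dcl4 control libraries, at 2.20, 1.42 and 1.92 FPKM, lay above those of Col-0 in all 3, with a log2 difference of 0.49 that was not called (adjusted p = 0.166) but passed when those 2 groups were fitted alone (adjusted p = 0.0289). The ski2 dcl4 dcl2 controls, at 1.09, 1.04 and 1.09, overlapped Col-0.

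CCA1 separated the groups in another way, because it was high in ski2 dcl4 as well. It was at 11.2, 10.3 and 7.57 FPKM in Col-0 control, and the controls labelled smxl4 smxl5 had 22.4, 20.9 and 21.2. The smxl6 smxl7 smxl8 controls were at 17.3, 22.6 and 18.5, and those of ski2 dcl4 at 29.2, 17.6 and 24.6. Every library of these 3 mutant groups was above every Col-0 control. The ski2 dcl4 dcl2 controls, at 11.3, 11.6 and 11.2, were at or just above the highest Col-0 control. CCA1 was higher than in Col-0 by 1.09 ± 0.21 (adjusted p = 0.000453), 0.94 ± 0.21 (adjusted p = 0.00209) and 1.20 ± 0.21 (adjusted p = 0.000136) log2 units in the first 3 mutants. LHY per CCA1, a ratio of FPKM values within a library, was 0.893 ± 0.0146 (SD, n = 3) in the controls labelled smxl4 smxl5, 0.404 ± 0.0501 in smxl6 smxl7 smxl8 and 0.109 ± 0.0317 in Col-0. It was 0.0781 ± 0.00265 in ski2 dcl4, below the lowest Col-0 control (0.0792) in 2 libraries and between the Col-0 values in the other. In order of mean level the 6 groups of these 3 mutants led for CCA1, from 27.8 FPKM in heated ski2 dcl4 to 19.5 in smxl6 smxl7 smxl8 control, and neighbours in that order overlapped. No library of the remaining 4 groups, with means from 12.9 down to 9.69 FPKM, reached the lowest library of those 6.

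**Figure D2:**
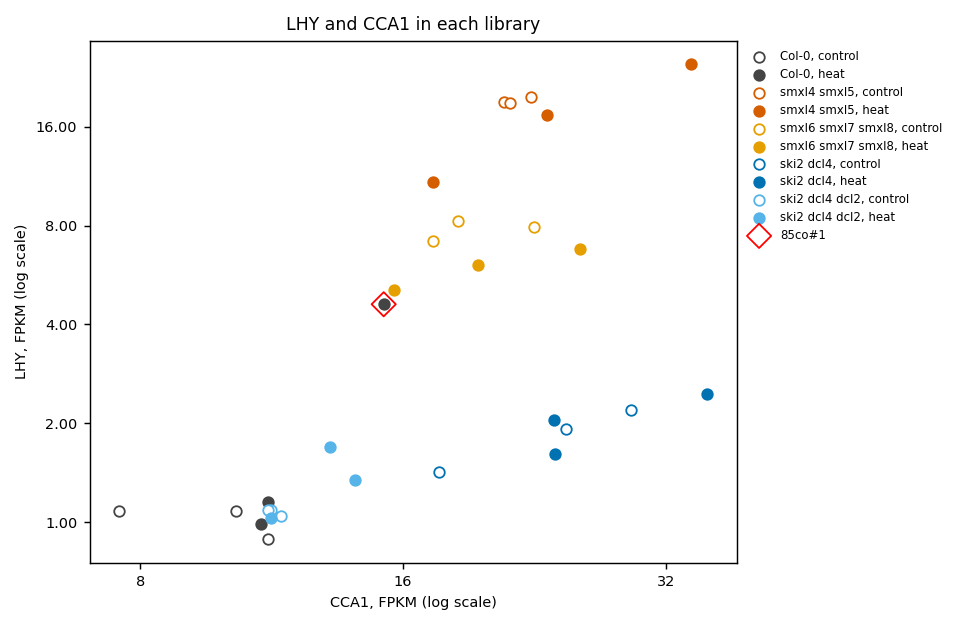
LHY against CCA1 in each of the 30 libraries, both in FPKM on log axes, with open points for control and filled points for heat. The 6 libraries labelled smxl4 smxl5 reached 24.8 FPKM of LHY, ski2 dcl4 had as much CCA1 with LHY at 1.42 to 2.46, and Col-0 heat replicate 2 (red diamond) lay at 15.2 FPKM of CCA1 and 4.61 of LHY, beside smxl6 smxl7 smxl8.

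RVE7, and under the label smxl4 smxl5 also RVE1, was low where LHY was high. RVE7 was at 22.3, 21.4 and 13.7 FPKM in Col-0 control, against 5.67, 5.02 and 5.11 in the controls labelled smxl4 smxl5 and 6.19, 7.84 and 7.97 in smxl6 smxl7 smxl8. No library of either mutant reached the lowest of Col-0, and the log2 differences were −1.65 ± 0.18 (adjusted p = 2.77e-07) and −1.25 ± 0.18 (adjusted p = 1.96e-05). RVE1 was at 9.73, 8.86 and 6.74 FPKM in Col-0 control and at 4.30, 3.10 and 3.96 in the controls labelled smxl4 smxl5, a log2 difference of −0.98 ± 0.17 (adjusted p = 0.000124). In smxl6 smxl7 smxl8 RVE1 was at 5.98, 6.63 and 7.80, overlapping Col-0 (log2 difference −0.27, 95% interval −0.62 to 0.08, adjusted p = 0.26). In ski2 dcl4 and ski2 dcl4 dcl2 control both genes overlapped Col-0. The locus AT5G17305 overlaps RVE1 by 225 bases on the other strand and ranged from 0 to 36.3 FPKM, and the strand setting of the authors' counting is not given in the sources used here, so reads of the overlap cannot be told apart.

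Among the activators, RVE8 was higher in the mutants with high LHY, RVE6 was slightly lower and RVE4 was not called. RVE8 was at 4.10, 4.59 and 3.79 FPKM in Col-0 control, 18.8, 15.5 and 16.6 in the controls labelled smxl4 smxl5, and 7.95, 8.04 and 7.68 in smxl6 smxl7 smxl8. These groups did not overlap. The ski2 dcl4 controls, at 8.94, 5.91 and 8.74, also lay above all Col-0 controls. The log2 differences from Col-0 were 1.80 ± 0.19 (adjusted p = 1.79e-07), 0.79 ± 0.19 (adjusted p = 0.00304) and 0.76 ± 0.19 (adjusted p = 0.00276). RVE4, with 46.9 to 71.1 FPKM over all 15 control libraries, was called in no mutant against Col-0 at control, with log2 differences from −0.06 to 0.18. RVE6 was at 6.25 to 7.39 FPKM in Col-0 control, 4.89 to 6.13 under the label smxl4 smxl5 (log2 difference −0.33, adjusted p = 0.0295) and 4.87 to 5.54 in smxl6 smxl7 smxl8 (−0.36, adjusted p = 0.0234). Each of these RVE6 calls was lost without Col-0 control replicate 1 or 2, the first also without replicate 2 or 3 of its mutant (adjusted p up to 0.119) and the second also without replicate 2 (up to 0.0858).

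The coactivator transcripts stood the opposite way to each other in the smxl mutants, LNK2 high and LNK1 low. LNK2 was at 61.9, 62.3 and 55.9 FPKM in Col-0 control, against 110, 115 and 119 in the controls labelled smxl4 smxl5 and 90.2, 117 and 96.8 in smxl6 smxl7 smxl8. Neither mutant overlapped Col-0, and the log2 differences were 0.92 ± 0.10 (adjusted p = 3.79e-07) and 0.74 ± 0.10 (adjusted p = 1.22e-05). LNK1 was at 25.6, 25.4 and 19.0 FPKM in Col-0 control, 16.4, 17.7 and 16.5 in the controls labelled smxl4 smxl5 and 14.7, 16.0 and 14.5 in smxl6 smxl7 smxl8. All 6 mutant libraries were below the Col-0 range, with log2 differences of −0.43 (adjusted p = 0.057, and −0.57 and 0.0239 without Col-0 control replicate 3) and −0.59 (adjusted p = 0.0126). The LNK1 call in smxl6 smxl7 smxl8 was lost without Col-0 control replicate 1 or 2, with adjusted p up to 0.0588. LNK2 per LNK1, a ratio of FPKM values, was 2.60 ± 0.297 (SD, n = 3) in Col-0 control and 6.78 ± 0.384 and 6.73 ± 0.607 in these mutants. LNK1 in ski2 dcl4 control was at 39.8, 20.9 and 33.8 FPKM. Of these, replicate 2, the library that stood apart, was the lowest, and 7 of the 9 genes in it differed by more than 0.3 log2 units from the other 2 libraries. Without it, LNK1 was higher in ski2 dcl4 than in Col-0 by 0.64 (adjusted p = 0.00215), against 0.38 (adjusted p = 0.0899) with it, and RVE6 by 0.40 (adjusted p = 0.0114), against 0.29 (adjusted p = 0.0523). The locus AT5G64160 overlaps LNK1 by 245 bases on the other strand at 13.0 to 20.6 FPKM, and AT3G08405 and AT3G54490 overlap LNK2 with at most 2.95 FPKM.

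Counted over the 9 genes at control, 4 were higher (CCA1, LHY, RVE8 and LNK2) and 3 lower (RVE1, RVE7 and RVE6) in the libraries labelled smxl4 smxl5 than in Col-0, where 30.1% of all genes tested were called, 15.3% higher and 14.8% lower. In smxl6 smxl7 smxl8 the same 4 were higher and LNK1, RVE6 and RVE7 lower, against 26.6% of all genes, 13.4% higher and 13.2% lower. Both comparisons share the Col-0 libraries. In ski2 dcl4, CCA1 and RVE8 were higher and none was lower, against 33.3% of all genes, 16.1% higher and 17.1% lower, so 2 of 9 was near that background. With upper-quartile rescaling the split over all genes in ski2 dcl4 went from 3476 higher of 7166 called to 5345 of 7872, and 4 of the 9 genes were higher. Without replicate 2 of ski2 dcl4 control, 4 were higher (CCA1, RVE8, RVE6 and LNK1). In ski2 dcl4 dcl2, limma called none of the 9, also none at an unadjusted p under 0.05, against 1.66% of all genes. The median log2 difference of the 9 genes was 0.118, 0.181, 0.291 and 0.03 in the 4 mutants in that order, against 0.0116, 0.0101, 0 and 0.00515 over all genes tested. The summed shoot markers were at 12700 to 14883 FPKM in Col-0 control, 11855 to 13593 in the controls labelled smxl4 smxl5, 12079 to 17686 in smxl6 smxl7 smxl8 and 9904 to 10282 in ski2 dcl4. In ski2 dcl4 they lay below Col-0 in all 3 libraries, and their part in the CCA1 and RVE8 differences was not tested.

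**Figure D3:**
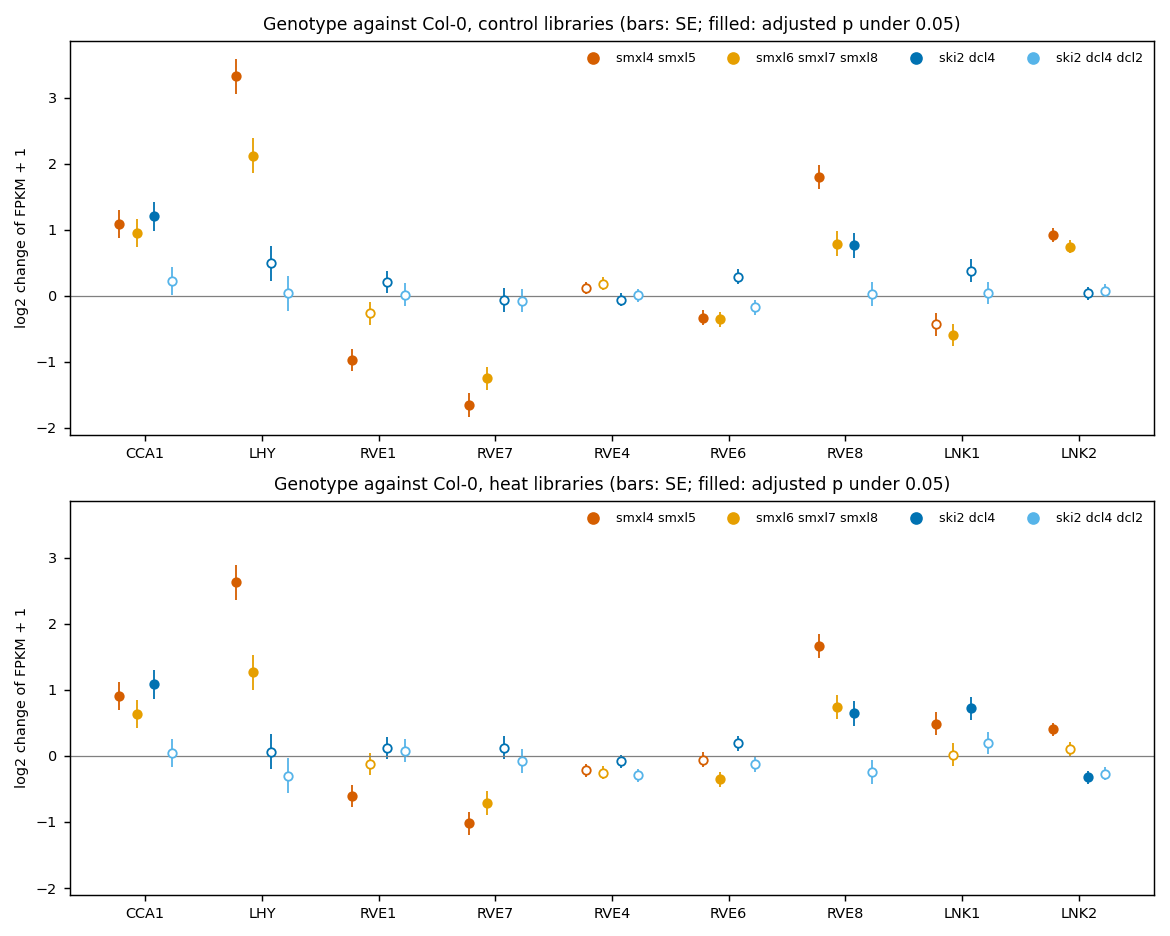
Log2 difference of FPKM + 1 from Col-0 for the 9 genes in 4 mutant genotypes, at control (upper panel) and after heat (lower panel). Points are limma estimates over 3 libraries a group, bars are standard errors, and filled points passed an adjusted p of 0.05. LHY stood 3.33 and 2.63 above Col-0 in the libraries labelled smxl4 smxl5 at control and after heat, and no point of ski2 dcl4 dcl2 was filled.

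After heat, 5 genes were higher (CCA1, LHY, RVE8, LNK1 and LNK2) and 2 lower (RVE1 and RVE7) in the libraries labelled smxl4 smxl5 than in heated Col-0, against 36.3% of all genes called, 19.1% higher and 17.2% lower. LHY was at 10.9, 17.4 and 24.8 FPKM there and at 0.987, 4.61 and 1.15 in heated Col-0, without overlap, although both groups were wide. The log2 difference was 2.63 ± 0.26 (adjusted p = 1.5e-07), and 3.11 (adjusted p = 1.49e-10) without Col-0 heat replicate 2. RVE8, at 12.1, 18.5 and 25.6 FPKM against 4.14, 6.06 and 4.87, was higher by 1.67 ± 0.19 (adjusted p = 5.66e-07). LNK1 passed with all libraries (0.49, adjusted p = 0.0274) but not without Col-0 heat replicate 2 (0.45, adjusted p = 0.0708), without Col-0 heat replicate 1 or without replicate 2 or 3 of its own group. RVE7, at 10.4, 9.98 and 6.89 against 19.9, 19.3 and 18.5, differed by −1.02 ± 0.18 (adjusted p = 0.000117). RVE1 was lower by −0.61 (adjusted p = 0.00691), a call lost without Col-0 heat replicate 3 (adjusted p = 0.0542).

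In heated smxl6 smxl7 smxl8, 3 genes were higher than in heated Col-0 (CCA1, LHY and RVE8) and 2 lower (RVE6 and RVE7), against 23.8% of all genes, 11.7% higher and 12.1% lower. LHY was at 6.80, 5.09 and 6.07 FPKM, each above the heated Col-0 libraries, of which replicate 2 came closest at 4.61. The log2 difference was 1.27 ± 0.26 (adjusted p = 0.0016) with that library and 1.75 (adjusted p = 1.57e-06) without it. CCA1 was higher by 0.64 (adjusted p = 0.0325), lost without Col-0 heat replicate 1 or 3 or without replicate 1 or 3 of its own group, with adjusted p up to 0.163. RVE6 was lower by −0.35 (adjusted p = 0.0271), lost without Col-0 heat replicate 1 or 2 or without replicate 1 or 3 of its own group (up to 0.105). RVE8 was higher by 0.74 (adjusted p = 0.00626) and RVE7 lower by −0.71 (adjusted p = 0.00567). The summed shoot markers were at 16568 to 18482 FPKM in heated smxl6 smxl7 smxl8 against 20570 to 23468 in heated Col-0. Their part in these differences was not tested. RVE4 was called in neither smxl mutant after heat, though lower in both when Col-0 heat replicate 3 was left out (−0.30, adjusted p = 0.0302, and −0.33, adjusted p = 0.0321).

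In heated ski2 dcl4, CCA1 was at 23.9, 23.8 and 35.7 FPKM against 11.0, 15.2 and 11.2 in heated Col-0, without overlap, and higher by 1.08 ± 0.21 (adjusted p = 0.00029). RVE8 was higher by 0.65 (adjusted p = 0.00784) and LNK1 by 0.72 (adjusted p = 0.00167), and LNK2 lower by −0.32 (adjusted p = 0.0131), against 39.5% of all genes called, 22.3% higher and 17.2% lower. With upper-quartile rescaling the split over all genes went from 4798 higher of 8511 called to 5902 of 8853. LHY, at 1.61, 2.04 and 2.46 FPKM, lay between the Col-0 heat libraries (log2 difference 0.06, adjusted p = 0.874). Without Col-0 heat replicate 2, LHY was higher by 0.54 (adjusted p = 0.0348) and LNK2 was no longer called (−0.20, adjusted p = 0.119), nor was it without replicate 2 of heated ski2 dcl4. All 4 shoot markers were also lower in heated ski2 dcl4 (median log2 difference −0.591), with sums of 14444 to 15009 FPKM against 20570 to 23468 in heated Col-0, and 2 of 4 root markers were higher. Their part in the differences of CCA1, RVE8, LNK1 and LNK2 was not tested. In heated ski2 dcl4 dcl2, limma called none of the 9, and 2 had an unadjusted p under 0.05, against 5.93% of all genes called. Its largest differences were LHY at −0.30 (95% interval −0.85 to 0.25) and RVE4 at −0.29 (95% interval −0.49 to −0.09, adjusted p = 0.076), the latter called without Col-0 heat replicate 3 (−0.37, adjusted p = 0.0312).

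RVE4, LNK2 and LNK1 differed between heat and control libraries in Col-0, while CCA1 and LHY were called in no genotype when all 30 libraries were fitted. Harvest times are not in the labels, so time of day and heat cannot be told apart here. RVE4 rose from 53.9, 55.2 and 46.9 FPKM to 93.3, 101 and 81.9 in Col-0, a log2 change of 0.81 ± 0.10 (adjusted p = 2.09e-07). LNK2 rose from 61.9, 62.3 and 55.9 to 97.1, 125 and 95.4 (0.80 ± 0.10, adjusted p = 4.6e-07), and LNK1 fell from 25.6, 25.4 and 19.0 to 10.1, 10.2 and 12.2 (−1.04 ± 0.17, adjusted p = 1.7e-05). Control and heat libraries of these 3 genes did not overlap. Of the 9 genes, 3 were thus called in Col-0, where 57.2% of all genes tested were called, 29.9% higher and 27.3% lower. LHY changed by 0.52 (95% interval −0.03 to 1.07, adjusted p = 0.1) and CCA1 by 0.34 (−0.10 to 0.78, adjusted p = 0.183). The LHY value rested on replicate 2: without it LHY changed by 0.04 (adjusted p = 0.897), and without replicate 1 or 3 by 0.79 (adjusted p = 0.019) or 0.73 (adjusted p = 0.0351). In smxl6 smxl7 smxl8 LHY changed by −0.34 (adjusted p = 0.3), which passed when its 2 groups were fitted alone (adjusted p = 0.046). RVE4, LNK2 and LNK1 changed by 0.74, 0.67 and −1.0 without replicate 2 and were called.

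RVE4 rose in every genotype and LNK1 fell in 4 of 5. RVE4 rose by 0.47 (adjusted p = 0.000235) under the label smxl4 smxl5, 0.38 (adjusted p = 0.00208) in smxl6 smxl7 smxl8, 0.79 (adjusted p = 3.96e-07) in ski2 dcl4 and 0.51 (adjusted p = 0.00012) in ski2 dcl4 dcl2. LNK1 fell by 0.42 (adjusted p = 0.0404) in smxl6 smxl7 smxl8, by 0.70 (adjusted p = 0.00134) in ski2 dcl4 and by 0.88 (adjusted p = 0.000171) in ski2 dcl4 dcl2. In smxl6 smxl7 smxl8 the LNK1 call was lost without any 1 of its 3 control libraries or without heat replicate 2 or 3, and with no filter on low values (adjusted p up to 0.147). In the libraries labelled smxl4 smxl5, LNK1 went from 16.4, 17.7 and 16.5 FPKM to 12.5, 16.2 and 18.5, overlapping ranges, with a change of −0.11 (adjusted p = 0.614). LNK2 rose by 0.28 (adjusted p = 0.0207) there, by 0.44 (adjusted p = 0.000774) in ski2 dcl4 and by 0.46 (adjusted p = 0.00059) in ski2 dcl4 dcl2, and its 0.16 in smxl6 smxl7 smxl8 was not called (adjusted p = 0.184, or 0.27 and 0.0304 without control replicate 2). The rise of LNK2 under the label smxl4 smxl5 was lost without control replicate 1, without heat replicate 3, and with upper-quartile rescaling (0.14, adjusted p = 0.243).

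RVE7 was called higher after heat under the label smxl4 smxl5 and in smxl6 smxl7 smxl8. It went from 5.67, 5.02 and 5.11 FPKM to 10.4, 9.98 and 6.89 under the label smxl4 smxl5 (0.67 ± 0.18, adjusted p = 0.00258) and from 6.19, 7.84 and 7.97 to 9.32, 14.3 and 10.8 in smxl6 smxl7 smxl8 (0.57 ± 0.18, adjusted p = 0.00896). Neither pair of ranges overlapped, but the second call was lost without control replicate 1 or heat replicate 2 of that genotype (adjusted p up to 0.0743). In Col-0 RVE7 changed by 0.04 (adjusted p = 0.889). Neither heat change was called different from that of Col-0 (limma interaction, adjusted p = 0.183 and 0.206). RVE6 rose in the libraries labelled smxl4 smxl5, from 6.13, 5.09 and 4.89 to 7.4, 7.63 and 7.84 (0.44 ± 0.11, adjusted p = 0.00218). RVE1 and RVE8 were called in no genotype, with changes from −0.29 to 0.16 and from −0.06 to 0.21. RVE1 in ski2 dcl4 passed without control replicate 2 (−0.44, adjusted p = 0.0436).

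In all, heat called 4 of the 9 genes in the libraries labelled smxl4 smxl5 (53.9% of all genes, 29.9% higher and 24% lower) and 3 in smxl6 smxl7 smxl8 (52.9%, 28.7% higher and 24.1% lower). It called 3 in ski2 dcl4 (55.6%, 32% higher and 23.6% lower) and 3 in ski2 dcl4 dcl2 (50.1%, 25.8% higher and 24.3% lower). With upper-quartile rescaling the split over all genes went from 6438 higher of 11596 called to 4356 of 10903 under the label smxl4 smxl5, and from 6881 of 11965 to 4881 of 11505 in ski2 dcl4. With 9 genes, nothing was read from these shares. The median heat change of the 9 genes was 0.213 in Col-0 and 0.159, 0.162, 0.0946 and 0.163 in the mutants in that order, against 0.0139, 0.0427, 0.035, 0.0623 and 0.00508 over all genes. The summed shoot markers went from 9904 to 17686 FPKM over the control libraries to 14444 to 23468 over the heat libraries, and the summed root markers from 30.3 to 42.0 down to 18.5 to 26.5. The sums of all FPKM values were also higher after heat, as given above, and the part of these shifts in the heat changes of RVE4, LNK1 and LNK2 was not tested.

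**Figure D4:**
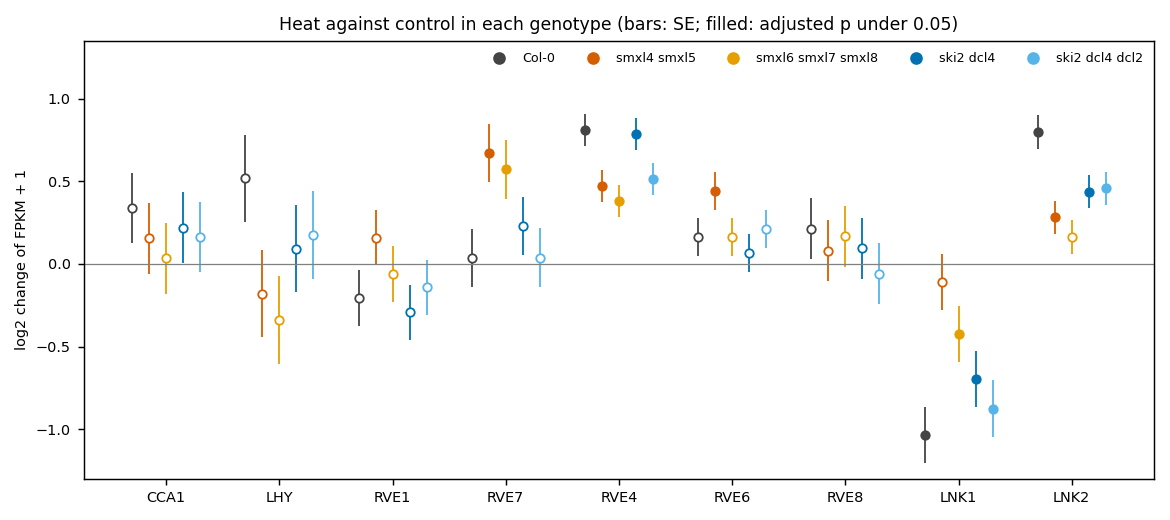
Heat change of the 9 genes in each of 5 genotypes, as the log2 change of FPKM + 1 from control. Points are limma estimates from 3 control and 3 heat libraries, bars are standard errors, and filled points passed an adjusted p of 0.05. RVE4 was above 0 and filled in all 5 genotypes, LNK1 ran from −1.04 in Col-0 to −0.11 in the libraries labelled smxl4 smxl5, and no point of CCA1, LHY, RVE1 or RVE8 was filled.

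Whether the heat change itself differed from that of Col-0 was tested with an interaction term. LNK1 fell less in the libraries labelled smxl4 smxl5, with a difference in heat change of 0.93 ± 0.24 (adjusted p = 0.046), and it was the only one of the 9 genes called there, against 2.08% of all genes. This call was lost in 12 of 18 alternative settings, among them the one without Col-0 heat replicate 2 (0.89, adjusted p = 0.0844). LNK2 rose less in smxl6 smxl7 smxl8, with a difference of −0.64 ± 0.14 (adjusted p = 0.0126), the only gene of the 9 called there, against 5.29% of all genes. It was −0.51 (adjusted p = 0.0316) without Col-0 heat replicate 2, and the call was lost with the compared groups fitted alone (adjusted p = 0.102). In the same interaction 2 of 4 shoot markers were called lower (median of the 4, −0.436), so these 2 also rose less there than in Col-0. Without Col-0 heat replicate 2 that call held for GAPB alone. The part of the shoot markers in the LNK2 value was not tested. LNK2 in the libraries labelled smxl4 smxl5 differed by −0.52 (adjusted p = 0.057) and RVE4 in smxl6 smxl7 smxl8 by −0.43 (adjusted p = 0.0653), and each passed once Col-0 heat replicate 3 was left out (−0.58, adjusted p = 0.0312, and −0.51, adjusted p = 0.0311), RVE4 also without control replicate 1 or 3 of the mutant. For RVE7 the differences were 0.63 (adjusted p = 0.183) and 0.54 (adjusted p = 0.206), so its rise in these mutants was not shown to differ from Col-0. With limma none of the 9 was called in the interactions of ski2 dcl4 (1 at an unadjusted p under 0.05, 0.372% of all genes called) and ski2 dcl4 dcl2 (2 at an unadjusted p under 0.05, 0.0464% called).

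The libraries labelled smxl4 smxl5 were also set directly against smxl6 smxl7 smxl8. LHY was higher in them by 1.20 ± 0.26 at control (adjusted p = 0.00261) and 1.36 ± 0.26 after heat (adjusted p = 0.000629). RVE8 was higher by 1.01 ± 0.19 (adjusted p = 0.000491) and 0.92 ± 0.19 (adjusted p = 0.000848), and RVE1 lower by −0.71 (adjusted p = 0.00481) and −0.49 (adjusted p = 0.0397). CCA1, by contrast, differed by 0.15 (95% interval −0.30 to 0.59) and 0.27 (−0.17 to 0.71), neither of which was called. At control 3 of the 9 genes were called, against 18.2% of all genes. After heat LNK2 was higher as well (0.30, adjusted p = 0.0346), making 4, against 22.2% of all genes. The heat calls of RVE1 and LNK2 were each lost without any of 4 libraries (adjusted p up to 0.171 and 0.136). That of RVE1 was also lost with no filter on low values (adjusted p = 0.0588). That of LNK2 was also lost with upper-quartile rescaling (adjusted p = 0.0534).

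Adding dcl2 to ski2 dcl4 went with lower CCA1 and RVE8, a comparison chosen after the values were seen. At control CCA1 was lower in ski2 dcl4 dcl2 by −0.98 ± 0.21 (adjusted p = 0.00154), RVE8 by −0.73 ± 0.19 (adjusted p = 0.00496) and RVE6 by −0.46 ± 0.11 (adjusted p = 0.00411), against 26.4% of all genes called. After heat CCA1 was lower by −1.03 ± 0.21 (adjusted p = 0.0006), RVE8 by −0.89 ± 0.19 (adjusted p = 0.000683), LNK1 by −0.52 (adjusted p = 0.0193) and RVE6 by −0.32 (adjusted p = 0.032), against 36.8%. Of the morning clock genes, 3 were thus called at control and 4 after heat, each near the share called over all genes. The CCA1 and RVE8 libraries of the 2 genotypes did not overlap in either condition. LHY was not called at control (−0.45), though it passed when those 2 groups were fitted alone (adjusted p = 0.0379). Shoot markers were higher in ski2 dcl4 dcl2 in the same comparison, 3 of 4 at control (median log2 difference 0.386) and 4 of 4 after heat (0.402), and their part in these differences was not tested. Without ski2 dcl4 control replicate 2, LNK1 was also lower at control (−0.60, adjusted p = 0.00443). The RVE6 call at control was lost without ski2 dcl4 control replicate 1 (adjusted p = 0.0514). Fitting the 2 groups alone also ended it (adjusted p = 0.0677). The heat call of LNK1 was lost without heat replicate 3 of either genotype (up to 0.135). That of RVE6 was lost without any 1 of 4 libraries (up to 0.151) and with upper-quartile rescaling (0.0654).

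Col-0 heat replicate 2, column 85co#1, stood apart from the other 2 heated Col-0 libraries in LHY and in several other clock genes. Among the 9 genes it was above both others in 5, below both in 1 and between them in 3. The share of all genes tested that lay above or below both others in it was not counted. Over all genes tested it lay farthest from its group (2.67% over 1 log2 unit), so these counts have no background to be read against. Its log2 difference from the mean of the other 2 was the largest of the 30 libraries for LHY (1.44) and LNK2 (0.37). It ranked 5 for RVE8 (0.36), RVE1 (−0.38) and RVE4 (0.21), 9 for CCA1 (0.42) and lower for the rest. It exceeded 0.3 in 5 of the 9 genes. That was as many as in heat replicate 3 labelled smxl4 smxl5 and in ski2 dcl4 control replicate 1, and fewer than the 7 in ski2 dcl4 control replicate 2. LHY was at 4.61 FPKM against 0.987 and 1.15, a ratio of 4.3 to their mean, and it lay closer to the lowest heated smxl6 smxl7 smxl8 library (5.09) than to any Col-0 library. CCA1 was at 15.2 against 11.0 and 11.2, RVE8 at 6.06 against 4.14 and 4.87, and LNK2 at 125 against 97.1 and 95.4, each above every other Col-0 library of either condition. RVE4 was the fifth above, at 101 against 93.3 and 81.9. RVE1 was below, at 5.81 against 6.82 and 9.0, and was the lowest of the 6 Col-0 libraries. RVE7 (19.3), RVE6 (8.12) and LNK1 (10.2) lay between. RVE7, the gene lowered most in both smxl mutants, was thus at the mean of the other 2, a ratio of 1.0, where the heated smxl libraries were at 6.89 to 14.3 FPKM.

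The evening side of the clock was lower in the same library. Of 5 PRR genes 4 were below both other libraries, and of 10 evening genes 9 were. PRR5, a repressor of CCA1 and LHY, was at 5.55 FPKM against 27.5 and 26.1, and between 2.14 and 4.8 in the heated smxl libraries. ELF4, a subunit of the evening complex, was at 2.54 against 17.8 and 11.9, within the range of the heated smxl libraries (1.79 to 3.71). FKF1, a blue-light receptor, was at 0.847 against 3.91 and 3.33, and GRP7, a clock-regulated RNA-binding protein gene, at 210 against 575 and 530. The median log2 difference of this library from the mean of the other 2 was 0.21 over the 9 morning genes, −0.71 over the PRR genes and −0.78 over the evening genes. As 1 library it carries no test, and these counts too stand without the share over all genes. Whether the clock lists differed more in it than genes at large was not tested.

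**Figure D5:**
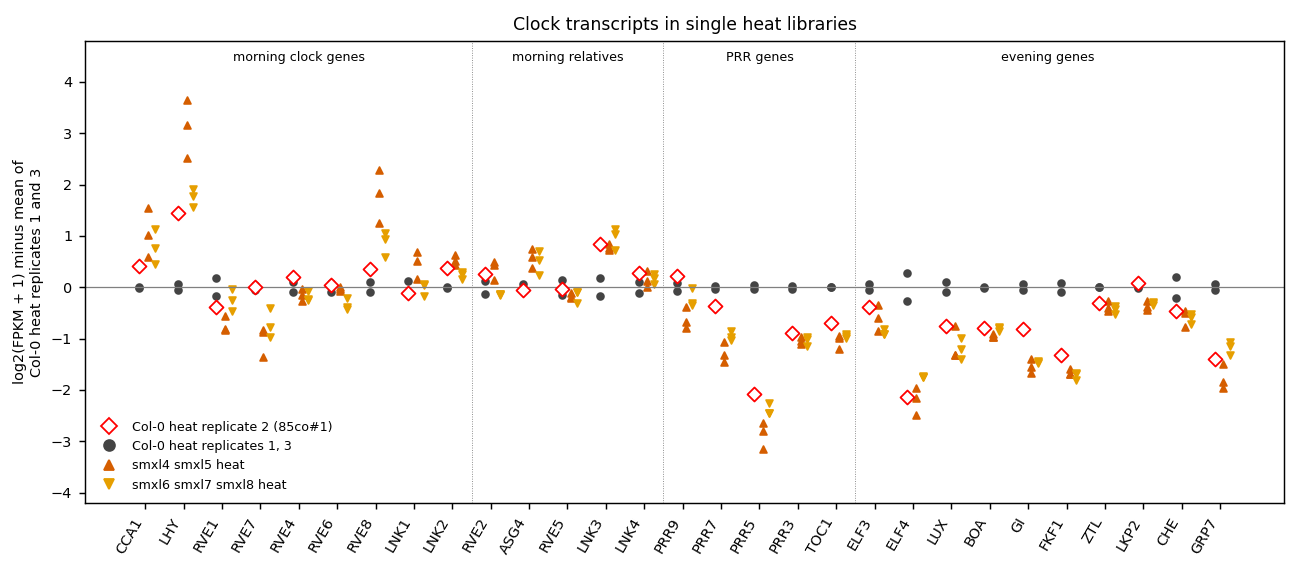
Clock transcripts in single heat libraries, as log2(FPKM + 1) minus the mean of Col-0 heat replicates 1 and 3. Red diamonds are Col-0 heat replicate 2 (column 85co#1), grey points the other 2 Col-0 heat libraries, and triangles the 6 heated smxl libraries. The red diamonds lay at 1.44 for LHY, −2.09 for PRR5 and −2.14 for ELF4, and at 0 for RVE7, where all heated smxl libraries were below 0.

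Other clock genes were described with lists of 5 morning relatives, 5 PRR genes and 10 evening genes, chosen with earlier results known. At control all 5 PRR genes and 8 of the 10 evening genes were lower than in Col-0 in the libraries labelled smxl4 smxl5, and likewise 5 and 8 in smxl6 smxl7 smxl8. Over all genes tested, 14.8% and 13.2% were called lower in these comparisons. Harvest time, which the labels do not give, cannot be told apart from genotype here. Under the label smxl4 smxl5, GI, an evening gene of the flowering pathway, was at 6.45 ± 0.21 FPKM (SD, n = 3) against 22.0 ± 0.493, and TOC1, the first known PRR gene, at 8.90 ± 0.339 against 21.1 ± 1.69. Of the morning relatives, LNK3 and LNK4 were higher in both, where 15.3% and 13.4% of all genes were called higher. LNK4 was at 49.6 ± 2.14 and 58.6 ± 14.8 FPKM against 25.9 ± 1.70. In ski2 dcl4, where CCA1 was also higher than in Col-0, none of the PRR genes was called at control by limma (1 at an unadjusted p under 0.05, and 1 higher without its replicate 2). Of its evening genes 1 was higher and 1 lower, and of its morning relatives 2 were higher (ASG4 and RVE5), or 4 without replicate 2. Of all genes 33.3% were called there, 16.1% higher and 17.1% lower. After heat 4 of 5 PRR genes and 10 of 10 evening genes were lower than in Col-0 in both smxl mutants, counts that were the same without Col-0 heat replicate 2. With all libraries fitted, 17.2% of all genes were called lower under the label smxl4 smxl5 and 12.1% in smxl6 smxl7 smxl8. In heated ski2 dcl4 2 PRR genes were higher, and 4 evening genes higher and 1 lower, or 2 and 2 without that library, which is near the 39.5% called over all genes. In ski2 dcl4 dcl2 none of the 3 lists had a called gene at control, with 0 of 20 at an unadjusted p under 0.05, against 1.66% of all genes called. The heat change of Col-0 called 3 PRR genes lower, 3 evening genes higher and 3 lower, or 2, 4 and 2 without replicate 2, about the share called over all genes (57.2%). LNK4 rose in Col-0 from 25.9 ± 1.70 to 64.8 ± 8.78 FPKM (1.29, adjusted p = 5.4e-08), a larger log2 change than that of any of the 9 genes.

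Across the 10 group means, which share libraries, depth and the Col-0 background, LHY ran with RVE8 (Pearson's r = 0.92) and LNK2 (0.813) and against RVE7 (−0.93) and RVE1 (−0.914). With CCA1 its r was 0.596. CCA1 ran closest to RVE8 (0.798), and LNK1 ran against LNK2 (−0.756) and RVE4 (−0.767). Of 5995 genes with enough level and range, those most like LHY over these means were AT3G22750 (r = 0.979), CYP82C4 (0.976), AT5G57760 (0.975), FRO2 (0.97) and AT1G28660 (0.967). FRO2 was at 25.1 FPKM in the controls labelled smxl4 smxl5, 9.68 in smxl6 smxl7 smxl8 and 0.549 in Col-0. The genes most opposed to LHY were AT4G33490 and AT3G62070 (both −0.985) and RIBA2 (−0.981). Those most like CCA1 were SAUR71 (0.959), APL3 (0.949), ICL (0.942), SAG29 (0.933) and PP2-A8 (0.933), and SAG29 was at 136 FPKM in ski2 dcl4 control, 68.3 under the label smxl4 smxl5 and 8.10 in Col-0. All of these are descriptions of 10 points.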

How the data were processed

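The authors deposited a table with a value for each gene in each library, read here as FPKM, a unit inferred from the values. Bowtie is named, without a version, in the submitters' processing notes. The counter, annotation and genome build were not given in the sources used here. Gene names came from the table and from RefSeq (TAIR10.1), which matched 99.2% of identifiers.

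Values were transformed to log2(FPKM + 1), and a gene was kept if 3 or more libraries reached 1 FPKM (21531 genes). limma 3.58.1 in R 4.3.3 was fitted to all 30 libraries with 1 mean per group and an intensity trend, with Benjamini-Hochberg adjustment over all genes tested in each comparison. Genes with adjusted p under 0.05 were called, and all adjusted p-values are limma's. The 21 comparisons were heat in each genotype, each mutant against Col-0 in either condition, the interactions, the smxl mutants against each other, and, added after the values were seen, ski2 dcl4 dcl2 against ski2 dcl4. The fit was run on simulated data with known changes in Col-0 heat alone and no outlying library. That setting is unlike these data, so the run does not bear on the calls. Alternatives were a pseudocount of 0.1, no filter, upper-quartile and median-of-ratios rescaling, a replicate block, the compared groups alone, and leaving out each library. Genes named outside the 9 are those of the clock lists, the genes in the genotype names, HSFA2, the shoot marker GAPB and loci overlapping the 9. Those described for column 85co#1 were picked from the clock lists because they stood out there. The others are among the 5 most like and 3 most opposed to LHY and to CCA1 over group means. These came from genes reaching 5 FPKM with a range of at least 1 log2 unit. Sequence windows and motif searches used Python 3.11.15. The 9 genes and the lists were chosen with earlier results of these data known. Since the labels do not state separate cultures, p-values measure the spread between these libraries, which may be technical.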

Additional observations from a re-analysis of the deposited data

Results flagged for a closer look

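The heat change of LNK1 in the libraries labelled smxl4 smxl5 differed from that in Col-0 by 0.93 log2 units (adjusted p = 0.046, limma interaction term). This call was lost in 12 of 18 alternative settings, with adjusted p up to 0.113. LNK1 fell by 1.04 in Col-0, where all 3 heat libraries were below all 3 controls, and changed by −0.11 in the libraries labelled smxl4 smxl5, where the ranges overlapped.

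The heat change of LNK2 in smxl6 smxl7 smxl8 differed from that in Col-0 by −0.64 log2 units (adjusted p = 0.0126, same test). This call was lost when the compared groups were fitted alone (adjusted p = 0.102). LNK2 rose by 0.80 in Col-0 and changed by 0.16 in smxl6 smxl7 smxl8, whose control libraries were at 90.2 to 117 FPKM. The highest control and the lowest heat library overlapped there. The part of the control level in this difference was not tested.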

How the results depend on the processing

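Of 64 calls of a gene in a comparison, 43 held in every alternative run and 21 were lost in at least 1. No called value changed sign. Counts of called genes that moved by more than 1.5 times were these. With upper-quartile rescaling 4 rather than 2 genes were called in ski2 dcl4 against Col-0 at control, and 2 rather than 1 in the interaction of heat and smxl4 smxl5. With the compared groups alone 2 rather than 5 were called in smxl6 smxl7 smxl8 against Col-0 after heat, where CCA1, LHY and RVE6 had adjusted p of 0.0701, 0.0696 and 0.0537, and 0 rather than 1 in each smxl interaction. The same setting ended the calls of LNK1 for heat in ski2 dcl4 (adjusted p = 0.0552), of LNK1 and LNK2 for smxl4 smxl5 against Col-0 after heat (0.0554 and 0.0548), of LNK2 for ski2 dcl4 against Col-0 after heat (0.0898) and of RVE6 for ski2 dcl4 dcl2 against ski2 dcl4 at control (0.0677). It added calls of LHY for heat in smxl6 smxl7 smxl8 (−0.34, 0.046), for ski2 dcl4 against Col-0 at control (0.49, 0.0289) and for ski2 dcl4 dcl2 against ski2 dcl4 at control (−0.45, 0.0379), of LNK1 for smxl4 smxl5 against Col-0 at control (−0.43, 0.0222), of RVE6 between the smxl mutants after heat (0.30, 0.0472) and of RVE4 for ski2 dcl4 dcl2 against ski2 dcl4 after heat (−0.21, 0.0372). With no filter the interaction of heat and smxl4 smxl5 called 0. Upper-quartile rescaling moved the median heat change of all genes from 0.0427 to −0.0636 under the label smxl4 smxl5 and from 0.0623 to −0.0523 in ski2 dcl4. The cause of these moves was not tested. With a library left out, the number of genes called ran from 1 to 3 for heat in smxl6 smxl7 smxl8, 3 to 5 for that mutant against Col-0 after heat, 2 to 4 for ski2 dcl4 against Col-0 at control, 0 to 1 for ski2 dcl4 dcl2 against Col-0 after heat, 0 to 2 and 1 to 2 for the smxl interactions, 2 to 4 for the smxl mutants against each other after heat, and 2 to 4 for ski2 dcl4 dcl2 against ski2 dcl4 in either condition.

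Between libraries with the same replicate number, deviations from the group means had correlations from −0.197 to 0.215. These were not set beside the correlations between different numbers, so whether such libraries deviated together was not tested. The numbers were not read as pairs. With the replicate block, LNK1 lost its call in the interaction with smxl4 smxl5 (0.93, adjusted p = 0.0563), which left 0 genes called, and RVE6 gained one in ski2 dcl4 at control (0.29, adjusted p = 0.0442). The block changed no other call.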
